A study of Homo sapiens with 8 samples.

Results

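The genes described here are 30 genes of cholesterol synthesis and its control by the transcription factor SREBP2, taken by their symbols from the 56832 gene rows of each count file. They were placed in 5 roles along the pathway. These were the mevalonate arm (8 genes), the formation of squalene and lanosterol (3), the steps from lanosterol to cholesterol (9), SREBP2 with the proteins that hold or release it (4), and uptake, transport, efflux and storage (6). All 30 passed the filter on low counts, which left 14611 genes for testing.

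RNA was sequenced from Nthy-ORI, a single human cell line from normal thyroid epithelium. All cultures, the controls included, first spent 24 h without hormone in medium free of phenol red with charcoal-stripped serum, which also takes away most steroids. T3, the active thyroid hormone, was then given at 10 nM, and control cultures received only its solvent, NaOH. The 4 groups of 2 libraries were vehicle at 6 h, T3 at 6 h, vehicle at 24 h and T3 at 24 h. Nothing in the labels says that the 2 libraries of a group came from separate cultures, so the p-values below measure the spread between these libraries, which may be technical.

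Cells build cholesterol from acetyl-CoA through mevalonate, isoprenoid diphosphates, squalene and lanosterol. When sterols run low in the endoplasmic reticulum, SCAP carries SREBP2 to the Golgi, where proteases free the part that enters the nucleus and turns on most genes of the pathway. With sterols abundant, the INSIG proteins hold SCAP back, and oxysterols acting on LXR receptors turn on genes of cholesterol efflux. Thyroid hormone is long known to alter cholesterol handling, mainly from work on liver.

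HMGCS1, IDI1, INSIG1 and MSMO1 were the 4 members that rose with T3 at 6 h, and their promoter sequences are shown for that reason. Each run is taken from RefSeq (GRCh38.p14), reads 5′ to 3′ on the gene's own strand, begins 250 bases before the RefSeq start site nearest to the gene's annotated 5′ end, and stops just before the gene begins in GENCODE 29. HMGCS1 lies at chr5:43313513-43313662 (minus strand, 150 bases) and IDI1 at chr10:1049171-1049369 (minus strand, 199 bases). INSIG1 lies at chr7:155297628-155297775 (plus strand, 148 bases) and MSMO1 at chr4:165327419-165327622 (plus strand, 204 bases). Capitals mark matches on either strand to CCAAT, the letters bound by NF-Y, and to GGGCGG, those bound by Sp1, which are both partners of SREBP2 at sterol-regulated promoters.
HMGCS1: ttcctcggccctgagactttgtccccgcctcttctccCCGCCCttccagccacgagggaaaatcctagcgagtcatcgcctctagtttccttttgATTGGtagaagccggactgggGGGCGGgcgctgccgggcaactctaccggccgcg
IDI1: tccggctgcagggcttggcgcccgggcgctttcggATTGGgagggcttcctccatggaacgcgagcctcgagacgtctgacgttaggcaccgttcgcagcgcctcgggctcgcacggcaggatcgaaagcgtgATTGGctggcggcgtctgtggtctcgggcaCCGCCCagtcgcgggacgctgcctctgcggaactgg
INSIG1: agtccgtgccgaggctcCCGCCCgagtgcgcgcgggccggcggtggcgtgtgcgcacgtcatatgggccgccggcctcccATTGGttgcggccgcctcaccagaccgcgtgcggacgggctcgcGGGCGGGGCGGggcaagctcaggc
MSMO1: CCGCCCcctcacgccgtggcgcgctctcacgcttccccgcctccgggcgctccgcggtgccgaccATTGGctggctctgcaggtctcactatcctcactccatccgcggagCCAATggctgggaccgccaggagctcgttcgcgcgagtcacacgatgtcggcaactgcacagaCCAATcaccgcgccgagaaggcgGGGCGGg

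All 4 sequences held matches to both motifs. RefSeq gave 2 entries for HMGCS1 and 3 for IDI1, of which 1 each is shown. The other HMGCS1 entry and another IDI1 entry held no CCAAT match. Over the full 250 bases before the start site, the 36 promoter entries that RefSeq gave for 27 of the 30 genes held CCAAT in 22 cases (61.1%), against 32.7% of the entries for tested genes and 32.0% of all 35116 entries. GGGCGG was in 32 of the 36 (88.9%), against 63.7% and 42.6%. TCACNCCAC, the letters searched for the sterol regulatory element, were in 1 of the 36 (2.78%), against 0.862% and 0.883%. That match, TCACCCCAC, began 133 bases before the start site of SREBF2 on its own strand. AGGTCA, the half-site bound by thyroid hormone receptors, was in 1 of the 36 (2.78%), against 8.75% and 12.1%, and lay 40 bases before a start site of DHCR7. Both strands were searched for each motif, and none of the 4 motifs contains another, although neighbouring matches can share a base, as those in INSIG1 do. A match describes letters in this window and shows no binding. ACAT2, FDFT1 and SQLE are not among the 27 genes.

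Reads counted in genes ranged from 2517983 to 8201606 per library, so 3 counts stood for 0.366 to 1.19 counts per 1e6 counts of the library (CPM). Values below are CPM after TMM scaling, and a level compared between genes is CPM per kilobase of exon. KLF9 and HR, established targets of T3, went with the labels at 6 h (log2 fold changes 3.95 and 0.77). At 24 h they went against them (-3.08 and -4.19), so the 24 h groups are called the libraries labelled vehicle and T3. The keratins KRT7, KRT8 and KRT18 had at least 440 counts in every library, and the thyroid regulator PAX8 had 12 to 1035. Of the 6 epithelial markers listed, 4 passed the filter on low counts. So did 3 of 10 thyroid follicular and 3 of 8 fibroblast markers. TG, TSHR and SLC5A5, which mark hormone-making thyroid cells, had at most 5 counts in any library. COL1A1, a collagen gene of fibroblasts, was lower with T3 at 6 h (log2 fold change -0.90) and at 24 h as labelled (-0.84), while COL1A2, COL3A1 and THY1 had at most 15 counts. The fibroblast list summed to 214 CPM in both vehicle libraries and 114 and 120 CPM with T3 at 6 h. At 24 h as labelled it summed to 1249 and 1145 CPM with vehicle and 723 and 627 CPM with T3. Of 3 tested thyroid follicular markers, all 3 were below 0 with T3 at 6 h, 1 of them called lower. At 24 h as labelled, 0 of these 3 were called. The part of these markers in the results was not tested. Reads in genes were 12.9% to 17.1% of each table at 6 h and 19.5% to 24.4% at 24 h, higher in both T3 libraries than in both vehicle libraries of each time as labelled. Reads not placed uniquely were 61.2% to 67.4% and 47.6% to 57.1%, and the part of these shares in the results was not tested either. Summed markers of endothelial, immune and thyroid C cells stayed at or below 2.85 CPM. The tables give CPM, a share of RNA, so fewer cells and less RNA per cell cannot be told apart.

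In the vehicle libraries at 6 h the most abundant transcripts per kilobase belonged to FDPS, the synthase of farnesyl diphosphate, at 66.8 ± 3.03 CPM per kb (SD, n = 2). PMVK, phosphomevalonate kinase, followed at 46.0 ± 10.2 and EBP, the sterol isomerase, at 38.1 ± 9.18, and their ranges overlapped. SREBF2, the gene of SREBP2, stood at 28.4 ± 1.63 and HMGCS1 at 26.3 ± 1.53, again not separable. The lowest level per kb was that of ABCA1 (0.0983 ± 0.0642), the sterol exporter, which had 2 and 4 counts there. INSIG2 (1.81 ± 0.51) and, among the enzymes of synthesis, CYP51A1 (2.06 ± 0.173) and HSD17B7 (2.13 ± 0.00274) came next, and the range of INSIG2 overlapped both. The level of CYP51A1 may hold only part of its reads, since 83.2% of its exon bases also lie in other genes. That of HSD17B7 is uncertain because of its near-identical copy HSD17B7P2.

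The first comparison asked which of these genes changed with T3 after 6 h. The genes that rose were HMGCS1, the synthase that makes HMG-CoA, IDI1, the isopentenyl diphosphate isomerase, MSMO1, the sterol C4 methyl oxidase, and INSIG1, which retains SCAP and is itself a target of SREBP2. They went up by 1.98, 1.74, 1.87 and 1.69 times. No member fell at the threshold, an adjusted p under 0.05. So 4 of 30 (13.3%) were higher, where 3.78% of all tested genes were, and 0 were lower, where 3.86% were (7.64% in either direction). At an unadjusted p under 0.05 the counts were 6 and 1, where 1680 of the 14611 tested genes were higher and 1709 lower. DESeq2 called 3 members higher and 0 lower, and 770 of 12596 genes in either direction. The median log2 fold change was 0.06 over the 30 genes and -0.02 over all tested genes, and 16 were above 0 and 14 below. Without the 24 h libraries in the fit, the count was 5 higher and 1 lower, the additions being SC5D and CYP51A1. That fit called 2896 of 12234 tested genes in either direction, where the fit of all 8 libraries called 1117 of 14611. Leaving out each of the 8 libraries in turn gave log2 fold changes of 0.93 to 1.08 for HMGCS1 and 0.71 to 0.91 for IDI1. For MSMO1 they were 0.84 to 1.00 and for INSIG1 0.71 to 0.84. Without any 1 of the 6 h libraries, fewer members were called higher, and fewer of all tested genes were called.

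HMGCS1 was read at 119 and 129 CPM in the 2 vehicle libraries and at 256 and 234 CPM in the 2 T3 libraries. The T3 libraries lay far above both controls, with no overlap. The log2 fold change was 0.99 (SE 0.13, adjusted p = 0.000311, edgeR's quasi-likelihood test). It remained called without any single library, between 0.93 and 1.08, and after correction for GC content and exon length, at 0.72. Its exons share 15.0% of their bases with an antisense transcript, whose reads cannot be told apart here.

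IDI1 stood at 55.2 and 55.8 CPM with vehicle and at 104 and 90.2 CPM with T3. Again both T3 libraries were above both controls. The log2 fold change was 0.80 (SE 0.15, adjusted p = 0.00499), and the call was lost without vehicle replicate 1 (adjusted p = 0.0853) or T3 replicate 1 (adjusted p = 0.101). With the GC and length correction it was 0.56. IDI1 makes dimethylallyl diphosphate, the primer on which FDPS builds longer chains. The exons of IDI1 share 14.8% of their bases with the antisense transcript IDI2-AS1, whose reads cannot be told apart here.

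INSIG1 gave 51.3 and 55.0 CPM with vehicle and 92.3 and 87.1 CPM with T3, without overlap. Its log2 fold change was 0.75 (SE 0.17, adjusted p = 0.0130). The call was lost without vehicle replicate 1 (adjusted p = 0.193), either T3 library (adjusted p = 0.152 for T3 replicate 1 and 0.115 for T3 replicate 2). Its paralogue INSIG2, which does the same work but is not driven by SREBP2 in the same way, stood at 7.13 ± 2.02 CPM with vehicle and 6.51 ± 0.991 CPM with T3 (log2 fold change -0.13, SE 0.38, adjusted p = 0.880).

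MSMO1 gave 20.1 and 22.0 CPM with vehicle against 38.6 and 39.9 CPM with T3, so the groups were apart. The log2 fold change was 0.90 (SE 0.23, adjusted p = 0.0237). This was the least firm of the 4. It was lost without vehicle replicate 1 (adjusted p = 0.272), vehicle replicate 2 (adjusted p = 0.0730), T3 replicate 1 (adjusted p = 0.143) or T3 replicate 2 (adjusted p = 0.182), and with DESeq2 (adjusted p = 0.0557) or the GC and length correction (0.53, adjusted p = 0.211).

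**Figure D1:**
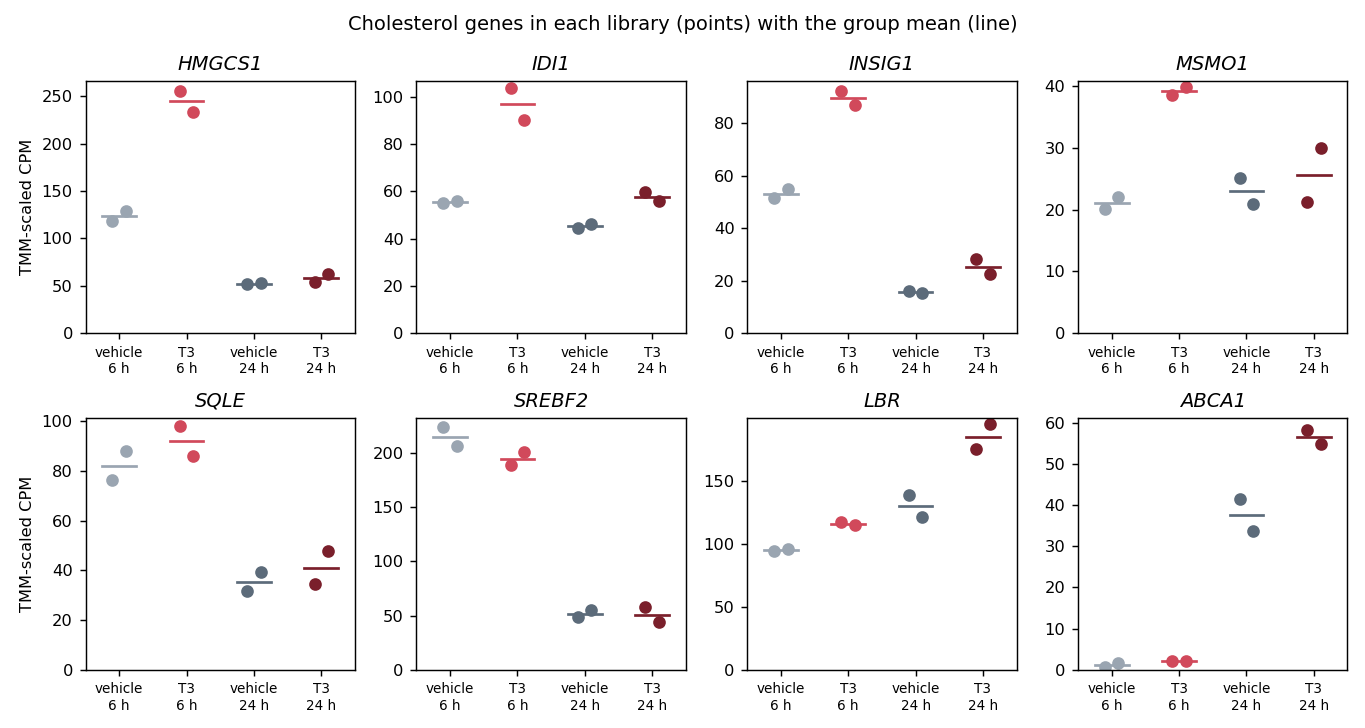
TMM-scaled CPM (y axes, each from 0) of 8 genes in each of the 8 libraries, by treatment and time on the x axes. Points are libraries and lines are group means. HMGCS1, IDI1, INSIG1 and MSMO1 are higher in both T3 libraries than in both vehicle libraries at 6 h, while SQLE and SREBF2 overlap or nearly meet.

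The other members of the mevalonate arm did not pass the test at 6 h. ACAT2, which joins acetyl-CoA units, had a log2 fold change of -0.10, and the kinases MVK and PMVK had -0.27 and -0.22. Of the exon bases of ACAT2, 52.3% also lie in SOD2, SOD2-OT1 or TCP1 on the other strand. MVD, the decarboxylase, had -0.36, FDPS 0.14, and GGPS1, which makes geranylgeranyl diphosphate, 0.43 (SE 0.26, adjusted p = 0.352). In sum, the 8 genes of the arm came to 625 ± 34.3 CPM in the controls and 795 ± 48.1 CPM after hormone, HMGCS1 alone accounting for 124 ± 7.21 and 245 ± 15.7 of these.

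SQLE, the squalene epoxidase and a rate-limiting target of SREBP2, stood at 76.3 and 88.0 CPM with vehicle and at 98.1 and 85.9 CPM with T3. The ranges overlapped, and the log2 fold change was 0.16 (SE 0.18, adjusted p = 0.636). FDFT1, which joins farnesyl units into squalene, had 0.27 (SE 0.15, adjusted p = 0.285), and LSS, which closes the sterol rings, -0.19.

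Past lanosterol, MSMO1 was the only one of 9 enzymes called at 6 h. SC5D, the sterol C5 desaturase, had 28.5 ± 3.42 CPM with vehicle and 43.2 ± 4.16 CPM with T3, with no overlap, but missed the threshold over all 8 libraries (log2 fold change 0.58, SE 0.23, adjusted p = 0.130). CYP51A1, the lanosterol demethylase, had 7.37 ± 0.62 CPM and 2.86 ± 0.482 CPM (log2 fold change -1.34, SE 0.62, adjusted p = 0.204), also without overlap. In the annotation used, 83.2% of the exon bases of CYP51A1 lie in other genes too, 79.4% on the same strand, so its counts may hold only part of its reads. LBR, a nuclear lamina protein with sterol C14 reductase activity, had a log2 fold change of 0.29 (adjusted p = 0.208). TM7SF2, the other C14 reductase, NSDHL and HSD17B7 of the C4 demethylation, EBP, and DHCR7, which reduces the last double bond of one branch, lay between -0.13 and 0.24. Reads of HSD17B7 are uncertain because of its near-identical copy HSD17B7P2.

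SREBF2 itself was read at 224 and 206 CPM with vehicle and at 189 and 201 CPM with T3. Both T3 libraries were slightly below both controls, but the log2 fold change was -0.14 (SE 0.14, adjusted p = 0.600), and 0.07 after the GC and length correction. SCAP had -0.10 (SE 0.17, adjusted p = 0.765). Neither passed the test while INSIG1 did, and the genes were not tested against each other.

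Of the 6 genes of uptake, transport, efflux and storage, 0 passed at 6 h, with 0 at an unadjusted p under 0.05 and 0 called by DESeq2. At that unadjusted threshold, 1680 of 14611 tested genes were higher and 1709 lower. STARD4, a carrier of sterols between membranes, had a log2 fold change of 0.44 (SE 0.22, adjusted p = 0.228), and MYLIP, the ligase that marks lipoprotein receptors for breakdown, 0.21. NPC1 and NPC2, which move cholesterol out of lysosomes, had -0.27 and -0.38. SOAT1, which esterifies cholesterol for storage, had 0.12. ABCA1 had 2 and 4 counts with vehicle and 6 and 10 with T3, so a difference was not detectable at this depth (adjusted p = 0.377).

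**Figure D2:**
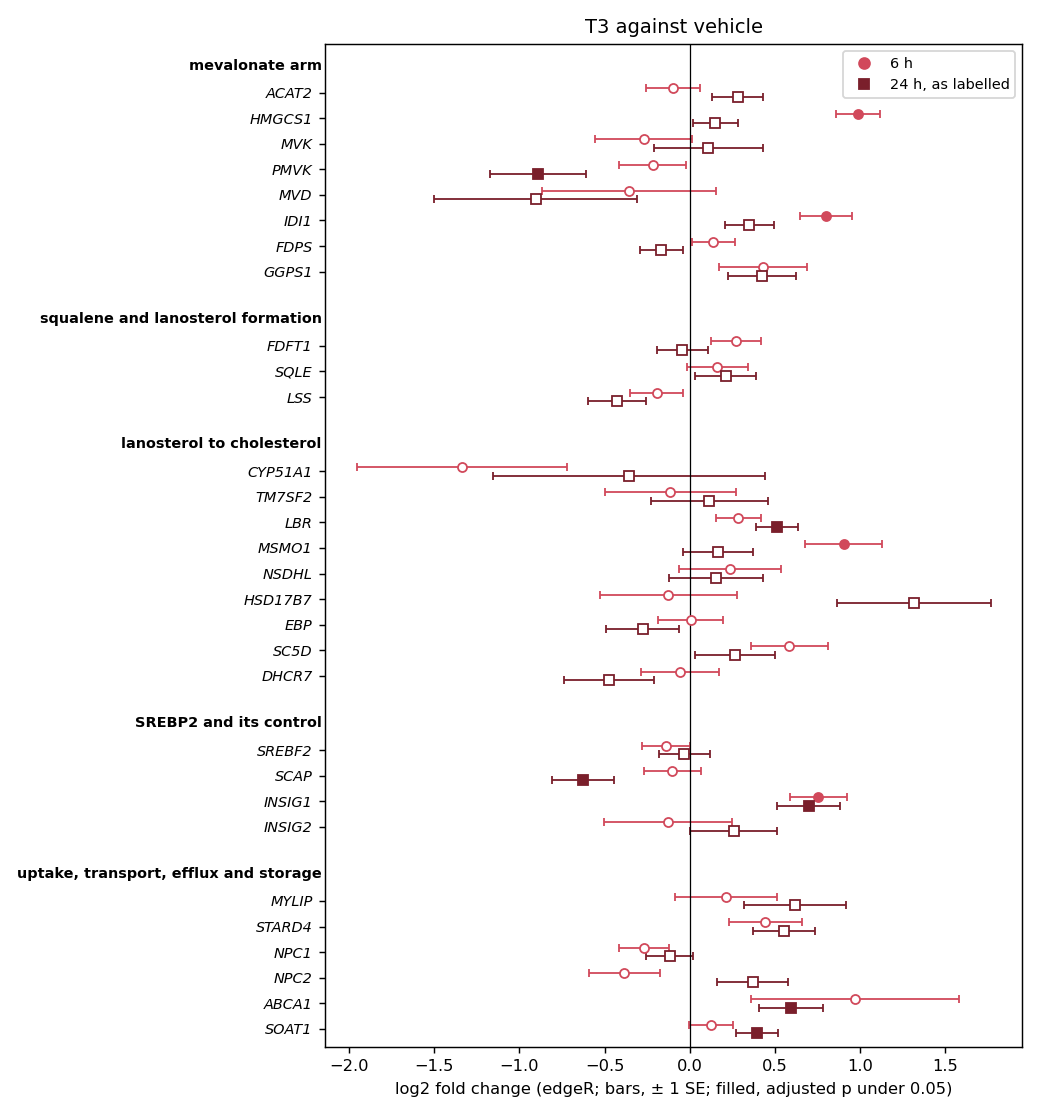
Log2 fold change of T3 against vehicle (x axis) for each of the 30 genes (y axis, by role), at 6 h (circles) and at 24 h as labelled (squares), with bars of 1 SE. Filled symbols passed an adjusted p of 0.05. The 4 filled circles are HMGCS1, IDI1, MSMO1 and INSIG1, and the other 26 circles are open.

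GC content moved with these comparisons. At 6 h the median log2 fold change fell from 0.30 in the fifth of tested genes with the lowest GC content to -0.31 in the fifth with the highest, and at 24 h as labelled from 0.33 to -0.53. The exons of HMGCS1, IDI1, MSMO1 and INSIG1 are 40.2%, 41.1%, 38.1% and 46.0% GC, against a median of 48.0% over tested genes and 46.2% over the 30. With GC content and exon length corrected, HMGCS1, IDI1 and INSIG1 were the members still called at 6 h, and no member was called at 24 h. Over all genes, the corrected fit called 453 of 12590 at 6 h and 174 at 24 h. Without the correction 1117 and 1950 of 14611 were called.

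At 24 h, going by the labels, INSIG1, LBR, ABCA1 and SOAT1 were higher in the libraries labelled T3, and PMVK and SCAP were lower. That made 4 of 30 (13.3%) higher, against 5.58% of all tested genes, and 2 (6.67%) lower, against 7.76%. The median log2 fold change was 0.16 over the members and -0.01 over all tested genes. None of the 6 was called by edgeR when only the 4 libraries of 24 h were fitted, or with the GC and length correction. Those fits called 702 of 14025 and 174 of 12590 tested genes, where the main fit called 1950 of 14611. Of the 4 genes called at 6 h, INSIG1 was the one also called here. Both comparisons carry the labels, and KLF9 and HR went against those at 24 h.

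INSIG1 gave 16.0 and 15.2 CPM in the libraries labelled vehicle and 28.4 and 22.3 CPM in those labelled T3, with no overlap. The log2 fold change was 0.70 (SE 0.18, adjusted p = 0.0206). Leaving out T3 replicate 1 or 2 of 6 h ended the call (adjusted p = 0.0562 and 0.0509), as did dropping, from the 24 h libraries, vehicle replicate 2 (adjusted p = 0.0871) or T3 replicate 1 (adjusted p = 0.0932).

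LBR gave 138 and 121 CPM against 175 and 195 CPM, the libraries labelled T3 being the higher. Its log2 fold change was 0.51 (SE 0.12, adjusted p = 0.0128), lost without vehicle replicate 2 (adjusted p = 0.0632) or T3 replicate 2 (adjusted p = 0.0890) of 24 h and 0.16 after the GC and length correction. The longest LBR transcript belongs to the fifth of genes lowest in GC.

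ABCA1 and SOAT1 also stood higher in both libraries labelled T3. ABCA1 gave 41.4 and 33.8 CPM against 58.4 and 54.8 CPM (log2 fold change 0.60, SE 0.19, adjusted p = 0.0448). SOAT1 gave 109 and 104 CPM against 137 and 142 CPM (log2 fold change 0.39, SE 0.12, adjusted p = 0.0430). Both calls were lost without any 1 of the 8 libraries, with adjusted p up to 0.235 for ABCA1 and up to 0.151 for SOAT1.

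The 2 lower genes were lower in both libraries labelled T3. PMVK gave 8.33 and 6.85 CPM against 4.32 and 3.80 CPM (log2 fold change -0.89, SE 0.28, adjusted p = 0.0459). SCAP gave 37.4 and 34.8 CPM against 23.3 and 23.4 CPM (log2 fold change -0.62, SE 0.18, adjusted p = 0.0328). The PMVK call held only without vehicle replicate 2 of 6 h among the 8 leave-outs, and the SCAP call only without either vehicle library of 6 h (highest adjusted p = 0.143 and 0.0804). After the GC and length correction SCAP was at -0.09 and PMVK at -0.44.

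The other genes followed by name passed no test at 24 h. HMGCS1 gave 51.8 and 52.9 CPM in the libraries labelled vehicle and 54.0 and 62.0 CPM in those labelled T3 (log2 fold change 0.15, SE 0.13, adjusted p = 0.490). SQLE gave 31.7 and 39.2 CPM against 34.4 and 47.7 CPM, which overlapped (0.21, adjusted p = 0.471). SREBF2 gave 48.6 and 54.8 CPM against 58.1 and 43.9 CPM, also overlapping (-0.03, adjusted p = 0.923). IDI1 (44.3 and 46.3 against 59.9 and 55.8 CPM) and MSMO1 (25.2 and 21.0 against 21.3 and 29.9 CPM) missed the threshold, with adjusted p = 0.120 and 0.638. STARD4 came near it at 0.55 (SE 0.18, adjusted p = 0.0543), as did HSD17B7 at 1.32 (SE 0.45, adjusted p = 0.0630), whose copy HSD17B7P2 had 20 and 45 counts in the libraries labelled T3 beside 21 and 57 for HSD17B7.

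**Figure D3:**
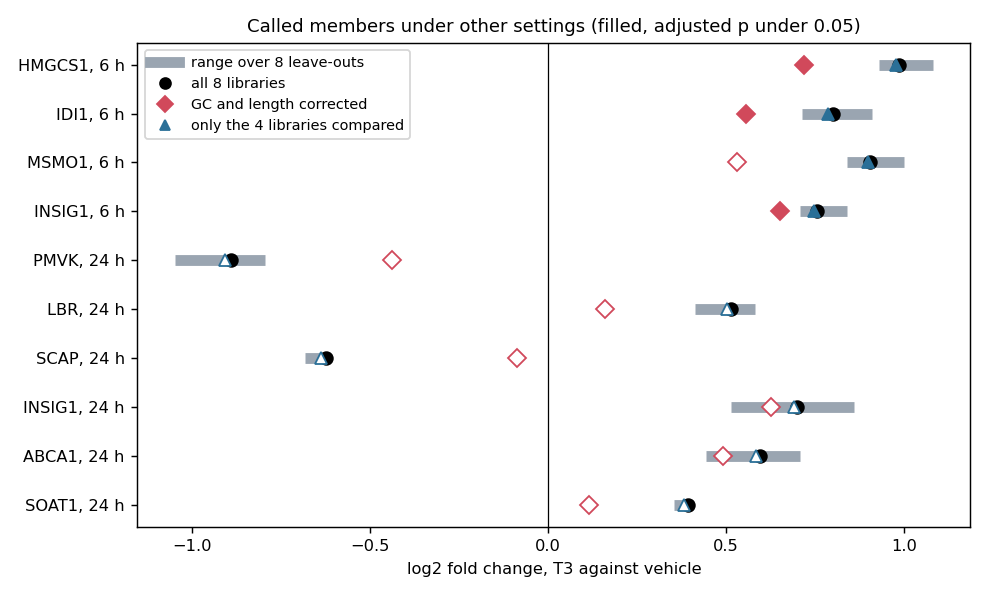
Log2 fold change (x axis) of each call with T3 (y axis, gene and time) under other settings. Grey bars span the 8 leave-outs and symbols give all 8 libraries, the GC and length correction and the 4 libraries compared, filled where the adjusted p was under 0.05. HMGCS1 at 6 h is filled throughout, and none of the 6 calls at 24 h is filled under the correction or with 4 libraries.

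The response to T3 at 24 h less that at 6 h was tested directly, and 1 member differed. The 24 h term goes by the labels, which KLF9 and HR went against, so every value here rests on them. HMGCS1 responded less at 24 h by -0.83 on the log2 scale (SE 0.19, adjusted p = 0.0282), so 1 of 30 was lower, against 0.992% of all tested genes, and 0 were higher, against 0.849% (1.84% in either direction). At an unadjusted p under 0.05 there were 2 higher and 4 lower, where 1038 of 14611 tested genes were higher and 1257 lower. DESeq2 called 0 members higher and 1 lower, and 256 of 10845 genes in either direction. The difference lost its call in 5 of the 8 leave-outs. At 6 h these were vehicle replicate 1 (adjusted p = 0.119), vehicle replicate 2 (adjusted p = 0.0598), T3 replicate 1 (adjusted p = 0.181) and T3 replicate 2 (adjusted p = 0.133), and at 24 h T3 replicate 1 (adjusted p = 0.0651). For MSMO1 it was -0.74 (SE 0.31, adjusted p = 0.246) and for IDI1 -0.45 (SE 0.21, adjusted p = 0.304). INSIG1, called at both times as labelled, had -0.06 (SE 0.25, adjusted p = 0.956).

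The widest differences among the members were between the times. The 24 h libraries enter these comparisons by their labels, which KLF9 and HR went against, so "with vehicle" and "with T3" stand for libraries labelled so. In the libraries labelled vehicle, 18 of 30 genes were lower at 24 h than at 6 h, where 32.6% of all tested genes were, and 4 (13.3%) were higher, where 31.9% were. In those labelled T3, 20 were lower, against 35.2% of all tested genes, and 6 higher, against 35.1%. The medians over the members were -1.18 and -1.03, and those over all tested genes 0.03 and 0.02. Most tested genes were called between the times, 64.5% with vehicle and 70.4% with T3. From the lowest to the highest of 5 classes of GC content, the median log2 fold change went from 0.72 to -0.96 with vehicle and from 0.73 to -1.20 with T3. The 4 tested epithelial markers were all called lower in both, their list summing to 1060 to 1230 CPM per library at 6 h and 403 to 573 CPM at 24 h. COL1A1 was higher by 2.64 and 2.69 and PAX8 by 3.54 and 4.75, while TG and THY1 stayed at or near 0. Of 3 tested fibroblast markers, 1 was called higher and 1 lower with vehicle, and 2 higher and 1 lower with T3. Of 3 tested thyroid follicular markers, 2 were called higher and 0 lower with vehicle, and the same with T3. The shares of reads in genes and of reads not placed uniquely, given above, did not overlap between the times. The part of these shifts in the result was not tested. With GC content and length corrected, 22 members were lower and 3 higher with vehicle, and 21 and 4 with T3. The corrected fit called 7713 of 12590 tested genes with vehicle and 8489 with T3, in either direction.

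In the mevalonate arm, as labelled, 5 of 8 genes fell with vehicle and 6 with T3. PMVK went from 58.9 ± 13.0 to 7.59 ± 1.05 CPM with vehicle (log2 fold change -2.98, SE 0.23) and from 50.7 ± 4.46 to 4.06 ± 0.369 CPM with T3 (-3.65, SE 0.24). HMGCS1 fell by 1.24 with vehicle and by 2.07 with T3 on that scale. The order of these 2 genes depended on the GC and length correction, after which PMVK had -1.74 and -2.14 and HMGCS1 -1.88 and -2.70. MVK had -1.98 and -1.60, MVD -1.79 and -2.34, and FDPS -1.28 and -1.58. Both MVD calls were lost with the GC and length correction (-0.69 and -0.97, adjusted p = 0.278 and 0.142), which also took FDPS to -0.75 and -0.89 and MVK with T3 to -0.89. IDI1 passed with T3 (-0.74) and had -0.29 (adjusted p = 0.107) with vehicle, but after that correction it passed in both (-0.84 with vehicle, adjusted p = 0.000137, and -1.28 with T3). GGPS1, whose product leads to prenylated proteins rather than to sterols, rose by 1.10 and 1.09 (0.55 and 0.56 after the correction), but 41.0% of its exon bases also lie in ARID4B or TBCE. ACAT2 passed in neither (-0.36 and 0.02). Where a gene passed with T3 alone, the difference between the treatments is the difference of response above, which was called for HMGCS1 and no other member. The vehicle call of MVD was lost without vehicle replicate 1 of 6 h or either vehicle library of 24 h (highest adjusted p = 0.0917). With T3, MVD had 58 and 13 counts in the 24 h libraries, and its value was -4.04 once T3 replicate 1 of 24 h was left out and -1.49 once T3 replicate 2 was.

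All 3 genes of squalene and lanosterol formation fell in both treatments as labelled. LSS went from 144 ± 16.0 to 30.7 ± 4.29 CPM with vehicle (log2 fold change -2.24) and from 126 ± 4.80 to 22.5 ± 4.13 CPM with T3 (-2.48). FDFT1 had -1.16 and -1.48, and SQLE -1.20 and -1.15. These calls were kept in all 8 leave-outs of each comparison.

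From lanosterol on, EBP (-1.99 with vehicle and -2.27 with T3, as labelled), DHCR7 (-1.95 and -2.37) and SC5D (-1.12 and -1.44) fell in both. After the GC and length correction DHCR7 had -1.29 and -1.53 and SC5D -1.90 and -2.21. CYP51A1 had -3.07 and -2.09, from 26 and 17 counts to 1 and 9 with vehicle. Without vehicle replicate 2 of 24 h the vehicle value was -4.87, and the T3 call was lost without T3 replicate 2 of 6 h (adjusted p = 0.140). HSD17B7 had -2.34 and -0.90, the latter lost (highest adjusted p = 0.196) on leaving out any 6 h library, vehicle replicate 2 of 24 h or T3 replicate 1 of 24 h. The value rested on these last libraries, being -0.51 without T3 replicate 1 of 24 h and -1.52 without T3 replicate 2, and it was -1.43 after the GC and length correction. MSMO1 passed with T3 (-0.61, adjusted p = 0.0137) and not with vehicle (0.13, adjusted p = 0.639), and the call was lost without T3 replicate 1 or 2 of 6 h or T3 replicate 1 of 24 h (highest adjusted p = 0.104), where it was -0.39 in the last case. The correction gave MSMO1 -0.48 with vehicle (adjusted p = 0.0762) and -1.17 with T3. TM7SF2 and NSDHL passed in neither, but TM7SF2 was called higher in both after the correction (1.01 and 1.56). LBR rose by 0.45 and 0.68, and turned to -0.35 (adjusted p = 0.0297) and -0.14 after the GC and length correction.

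Going by the 24 h labels, SREBF2 fell with vehicle from 215 ± 12.3 to 51.7 ± 4.37 CPM (log2 fold change -2.05, SE 0.15) and with T3 from 195 ± 9.04 to 51.0 ± 10.0 CPM (-1.94, SE 0.15). SCAP had -1.81 and -2.34, and INSIG1 -1.77 and -1.83. INSIG2 moved the other way, from 7.13 ± 2.02 to 19.7 ± 6.18 CPM with vehicle (1.47, SE 0.32) and from 6.51 ± 0.991 to 23.3 ± 1.34 CPM with T3 (1.86, SE 0.30). These 8 calls held in each leave-out. With the GC and length correction, INSIG2 (longest transcript 35.4% GC) was not called with vehicle (0.71, adjusted p = 0.0736) and had 1.05 with T3. SCAP had -0.92 and -1.21 after it. By level per kb, INSIG1 stood at 14.6 ± 0.713 and INSIG2 at 1.81 ± 0.51 CPM per kb with vehicle at 6 h, and at 4.27 ± 0.154 and 4.99 ± 1.57 CPM per kb at 24 h, where their ranges overlapped.

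The genes of uptake, transport, efflux and storage did not share 1 direction. ABCA1 had the largest rise among the members, from 2 and 4 counts to 184 and 227 in the libraries labelled vehicle (log2 fold change 5.13, SE 0.37) and from 6 and 10 to 378 and 476 in those labelled T3 (4.76, SE 0.29). NPC2 had -1.33 and -0.58, and MYLIP -1.11 and -0.71. STARD4 (0.51, adjusted p = 0.0229) and SOAT1 (0.36, adjusted p = 0.0159) passed with T3, and had 0.40 and 0.09 with vehicle, below the threshold. After the GC and length correction both were lower at 24 h, STARD4 by -0.51 with vehicle and -0.47 with T3 and SOAT1 by -0.62 and -0.37. NPC1 passed in neither (-0.25 and -0.10), although the correction gave a call with vehicle (-0.40, adjusted p = 0.0175). Leaving out either T3 library of 6 h ended the T3 calls of NPC2, MYLIP and SOAT1 (highest adjusted p = 0.101, 0.134 and 0.108), and MYLIP had -1.27 once T3 replicate 2 of 24 h was dropped and -0.33 once T3 replicate 1 was. Those of NPC2 and MYLIP were also lost without T3 replicate 1 of 24 h (adjusted p = 0.0715 and 0.239), MYLIP without vehicle replicate 1 of 6 h (adjusted p = 0.0519) and SOAT1 without T3 replicate 2 of 24 h (adjusted p = 0.0731). STARD4 was lost on dropping, at 6 h, vehicle replicate 2 (adjusted p = 0.0525) or T3 replicate 2 (adjusted p = 0.264).

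**Figure D4:**
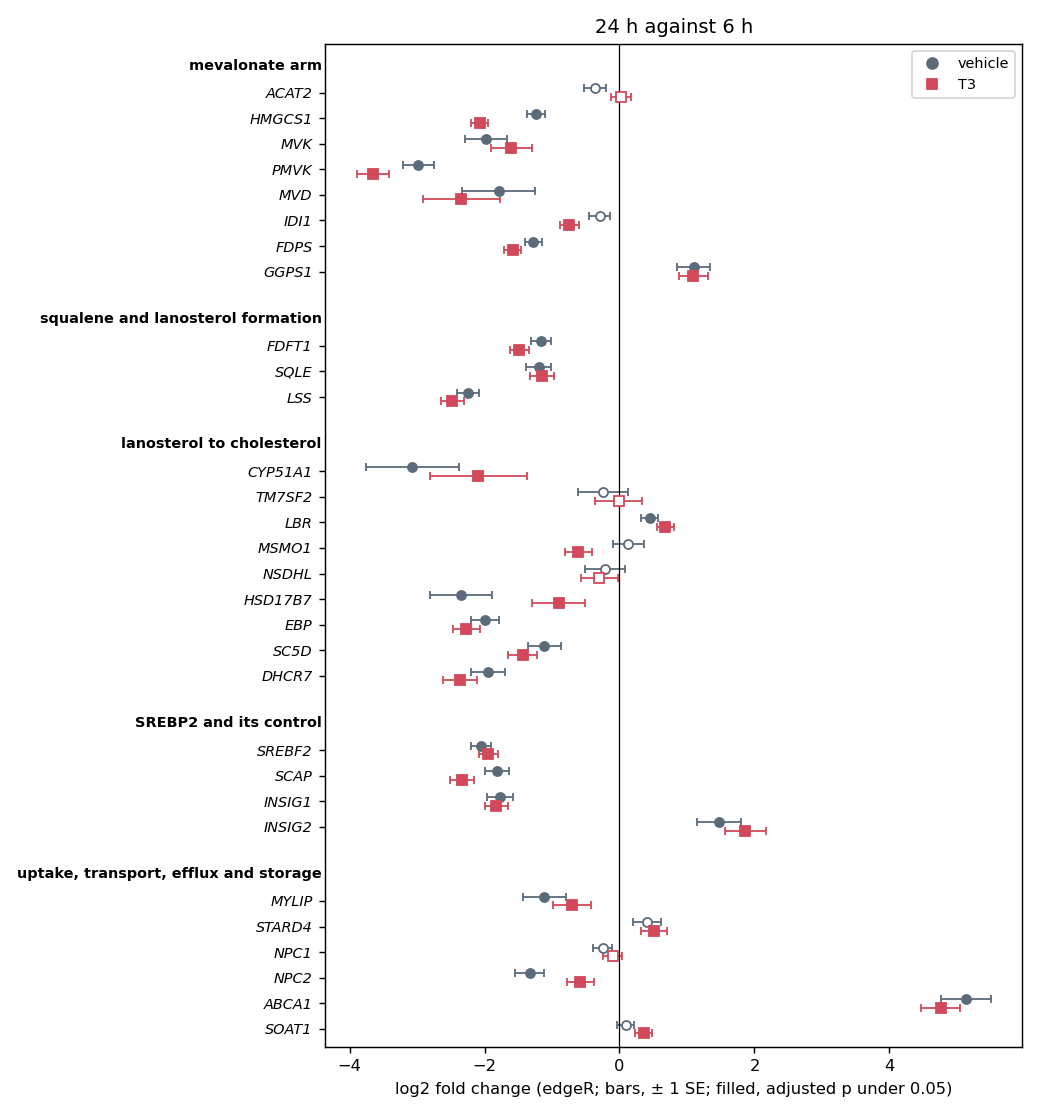
Log2 fold change of 24 h against 6 h (x axis) for the 30 genes (y axis, by role), with vehicle (circles) and with T3 (squares) as labelled, and bars of 1 SE. Filled symbols passed an adjusted p of 0.05. Most symbols lie left of 0, and GGPS1, LBR, INSIG2 and ABCA1 are filled to the right of 0 in both.

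Summed over a role, the mevalonate arm went from 625 ± 34.3 CPM at 6 h to 304 ± 12.3 CPM at 24 h in the libraries labelled vehicle. Squalene and lanosterol formation went from 323 ± 19.5 to 109 ± 4.16 CPM, the steps from lanosterol to cholesterol from 336 ± 23.5 to 231 ± 5.12 CPM, and SREBP2 with its control from 401 ± 41.3 to 123 ± 4.16 CPM. Uptake, transport, efflux and storage stood at 274 ± 1.29 and 275 ± 22.7 CPM. The 20 enzymes together came at 6 h to 1284 ± 77.3 CPM in the controls and 1517 ± 75.7 CPM with hormone, and at 24 h, as labelled, to 644 ± 13.2 and 719 ± 62.5 CPM.

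**Figure D5:**
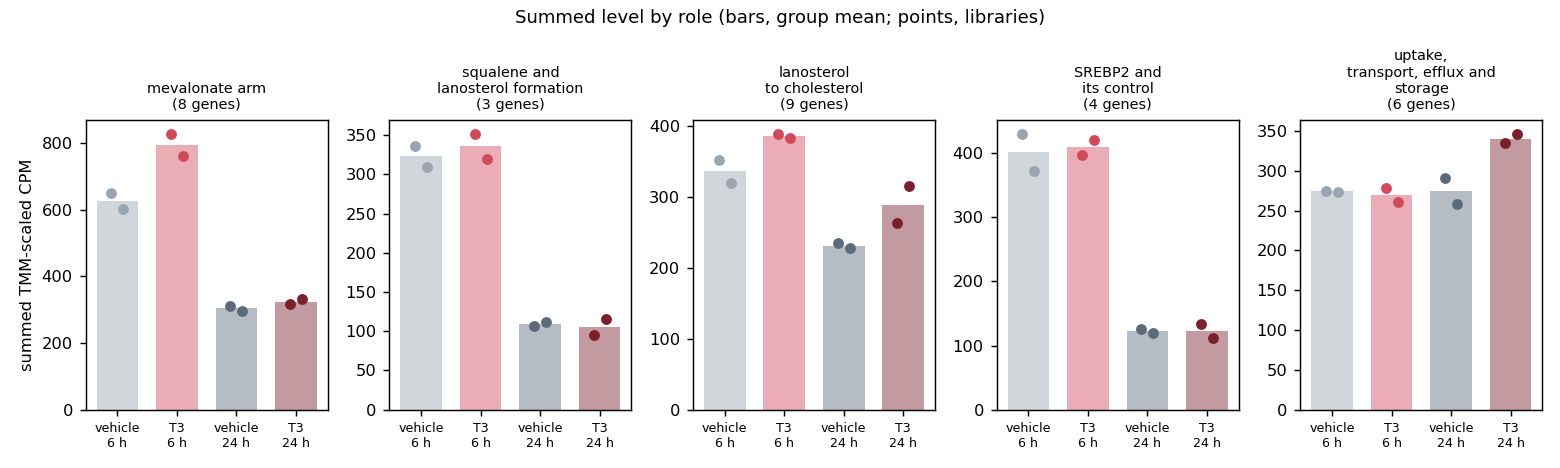
Summed TMM-scaled CPM (y axes, from 0) of the genes in each of the 5 roles, by labelled treatment and time (x axes). Bars are group means and points are libraries. The 3 groups of synthesis genes and the SREBP2 group are lower at 24 h than at 6 h, while the last group is not.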

How the data were processed

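The deposited values are raw read counts per gene symbol, 1 file per library, made by the authors with CASAVA 1.7, STAR 2.7, HTSeq and DESeq2 on hg38, per the submitters' processing notes. RNA integrity was high and ribosomal RNA was removed, per the labels' protocols. Which annotation release, strand setting and trimming were used is not given in the sources used here, so antisense and overlapping genes may share reads.

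The 5 summary rows of each table were left out. No value column was without a sample (0). Testing used edgeR 4.0.16 (R 4.3.3), with TMM scaling, the filterByExpr filter and a robust quasi-likelihood F test over all 8 libraries (4 residual degrees of freedom, biological coefficient of variation 13.1%). P-values were adjusted by Benjamini-Hochberg over 14611 genes, with a threshold of 0.05. The self-test on simulated counts for the 6 h comparison (13962 genes) recovered 62% of 2-fold rises and 100% of 4-fold rises. Alternatives were RLE factors, no filter, only the libraries compared, a replicate block, lowess offsets for GC content and exon length (span 0.3, 12590 genes with GENCODE 29 values), DESeq2 1.42.0, and each library left out.

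The members and lists were chosen with earlier results of these data known. Values in every library are given for members called with T3 or in the difference of response, and for HMGCS1, SQLE, INSIG1 and SREBF2. Other members are given by group means or fold changes, and up to 4 called genes per related list and comparison by smallest p. No 2 of the 8 libraries held identical values. Floors of 3 counts cover counting error only, since reads lacking molecular identifiers need not be independent molecules. Promoters came from RefSeq (GRCh38.p14), where 31 of 36 entries ended in a GENCODE 29 transcript of their gene over the last 20 bases.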

Additional observations from a re-analysis of the deposited data

Results flagged for a closer look

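The response of HMGCS1 to T3 differed between the times by a test of the difference itself, the interaction of treatment and time in edgeR. The response at 24 h less that at 6 h was -0.83 on the log2 scale (SE 0.19, adjusted p = 0.0282), with log2 fold changes of 0.99 at 6 h and 0.15 at 24 h as labelled. The direction of the 24 h term rests on labels that KLF9 and HR contradict. With 2 libraries a group, no group was large enough to be searched for a single outlying library.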

How the results depend on the processing

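Signs were compared across settings only where at least 1 of the 2 fits called the gene. Leaving out each library in turn ended calls with T3 at both times and in the difference of response, as given by gene above. Leaving out a 6 h library also lowered the calls with T3 at 6 h over all tested genes. For 24 h against 6 h most member calls were kept. No leave-out reversed the sign of a member in any comparison. A fit of only the 4 libraries compared gave 5 members higher and 1 lower at 6 h, and 0 higher and 0 lower at 24 h. That fit had fewer residual degrees of freedom, whose part in these counts was not tested. It called 2896 of 12234 tested genes at 6 h and 702 of 14025 at 24 h. The members called at 24 h were 2 higher without a filter on low counts, 2 higher and 0 lower with DESeq2, and 0 higher and 0 lower with the GC and length correction. Over all genes, these 3 settings called 1980 of 30107, 1184 of 12012 and 174 of 12590. The replicate block gave 2 higher and 1 lower at 24 h, 4 higher at 6 h, and 19 lower in each comparison of times. Same-numbered libraries deviated from their group means with correlations between -0.0437 and 0.0972, so no shared deviation showed. These values cannot decide whether same-numbered libraries were handled together, and the labels do not say. The GC and length correction reversed 4 genes between the times, with vehicle and T3 values of 1.01 and 1.56 for TM7SF2, -0.35 and -0.14 for LBR, -0.51 and -0.47 for STARD4, and -0.62 and -0.37 for SOAT1. The cause was not tested. RLE size factors changed none of the counts by over 1.5 times. Depth limits ABCA1 at 6 h, with 2 to 10 counts, and CYP51A1 at both times, with 1 to 26.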

Other observations

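Genes near the pathway were followed through 3 further lists. Of 23 tested genes of sterol handling and SREBP processing, 1 (4.35%) rose and 3 (13.0%) fell with T3 at 6 h, where 3.78% and 3.86% of all tested genes did. NFYB, a subunit of NF-Y, rose (log2 fold change 0.61, adjusted p = 0.0368), and VLDLR, a lipoprotein receptor (-1.17, adjusted p = 0.0303), STARD3, an endosomal sterol carrier (-0.75, adjusted p = 0.0376), and GRAMD1A, which moves sterol from the plasma membrane (-0.63, adjusted p = 0.0337), fell. At 24 h as labelled 2 (8.70%) were higher and 1 (4.35%) lower, against 5.58% and 7.76%. RNF139 (0.90, adjusted p = 0.00587) and MBTPS2, a protease that frees SREBPs (0.49, adjusted p = 0.0493), were higher. GRAMD1B was called lower at 24 h from 1 and 4 counts to 0 and 0, and had 118 to 363 counts in the 6 h libraries. Of the 10 tested genes of the isoprenoid branches 0 passed edgeR with T3 at either time. At an unadjusted p under 0.05 there were 2 higher and 0 lower at 6 h, and 2 higher and 1 lower at 24 h. Of all 14611 tested genes, 1680 were higher and 1709 lower at 6 h so, and 1902 and 2303 at 24 h.

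The fatty acid targets of SREBP1 gave 0 calls by edgeR with T3 at 6 h among 10 tested genes. With an unadjusted p under 0.05, 3 were higher and 0 lower, where 1680 of 14611 tested genes were higher and 1709 lower. At 24 h as labelled 1 of the 10 (10%) was lower, against 7.76% of all tested genes. This was FASN, the fatty acid synthase (-0.92, adjusted p = 0.00503). From 6 h to 24 h, as labelled, 5 of the 10 fell and 1 rose with vehicle, and 7 fell and 1 rose with T3, where 32.6% and 35.2% of all tested genes fell and 31.9% and 35.1% rose. SCD, the stearoyl-CoA desaturase, went from 766 ± 10.0 to 80.3 ± 3.47 CPM with vehicle, and FASN from 793 ± 134 to 52.6 ± 2.98 CPM. SREBF1, the gene of SREBP1, fell from 157 ± 13.2 to 6.95 ± 0.913 CPM with vehicle (log2 fold change -4.48) and by 4.06 with T3. SCARB1, a receptor for lipoproteins of high density, fell by 2.78 and 3.20 on the log2 scale. These 2 genes are from the list of sterol handling and SREBP processing, with 23 tested genes. Between the times, 10 of the 23 (43.5%) were lower and 7 (30.4%) higher with vehicle. With T3, 8 (34.8%) were lower and 7 (30.4%) higher, beside the shares of all tested genes given above.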
